A study of Homo sapiens with 12 samples.

Results

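Aminoacyl-tRNA synthetases are the enzymes that join each amino acid to its transfer RNA (tRNA) before the ribosome uses it. A list of 36 of these genes was followed, chosen by symbol, of which 18 encode cytosolic enzymes, 16 mitochondrial enzymes and 2 (KARS1 and GARS1) enzymes that serve both compartments. Of the 36 genes, 35 were measured, among 12566 genes tested on arrays of 47314 probes. The cytosolic cysteinyl enzyme gene CARS1 was not analysed here because no probe was assigned to it, so 17 cytosolic, 16 mitochondrial and 2 shared members follow. Each gene was read from its brightest probe with a detection p-value under 0.05 on at least 3 of 12 arrays, and all 35 chosen probes were in fact detected on 12 of 12 arrays.

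The arrays measured RNA of Caco-2, an established line of human colorectal cancer cells, in 4 groups of 3. One line bears the label of a doxycycline-inducible hairpin RNA (shRNA) meant to knock down LRH-1 (gene NR5A2), a nuclear receptor, and was harvested 96 hours after 5 µg/ml doxycycline was added or without doxycycline. A control line was treated the same way, and the labels call it native in one place and a non-silencing vector control in another. Labels give neither the hairpin sequence used, nor whether a line was 1 clone, nor whether the replicates of a group came from separate cultures. The p-values therefore cover the spread between these arrays alone, and that spread may be purely technical.

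Most of these enzymes come in pairs, with one gene for the cytosol and another for the mitochondrion, where they charge the tRNAs that decode mitochondrial messages. Several cytosolic synthetases sit together in a large multi-synthetase complex held by scaffold proteins. When amino acids run short or the endoplasmic reticulum is stressed, the transcription factor ATF4 is known to activate many cytosolic synthetase genes together with genes for making and importing amino acids.

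The hairpin's target was checked first. NR5A2 stood at 10.59, 10.59 and 10.84 on the log2 intensity scale in the shRNA-labelled line with doxycycline, against 10.13, 10.13 and 10.24 without it. Control-line values were 11.18, 11.00 and 10.97 with doxycycline, against 10.10, 10.12 and 10.27 without it. Its RNA was thus higher with doxycycline in both lines, by 0.50 in the shRNA-labelled line (limma, adjusted p = 0.00995) and by 0.89 in the control line (adjusted p = 0.000384). The rise within the shRNA-labelled line goes against the label. Between the lines, NR5A2 with doxycycline was lower in the shRNA-labelled line (10.59 to 10.84) than in the control line (10.97 to 11.18), and without doxycycline the lines overlapped. The part of the hairpin in this was not tested, and no difference here is tied to loss of LRH-1. Median intensities per array were 251 to 386, and 41.2% to 44.7% of probes were detected. The untreated control-line arrays held both ends of each range. Their medians were 386, 251 and 385, with 44.7%, 42.8% and 41.2% of probes detected. The part of this unevenness in the synthetase values was not tested. Of 13 intestinal epithelial markers 12 were kept as detected, among them EPCAM, CDH1 and VIL1. Of 8 fibroblast markers 5 were detected, with COL1A2, COL3A1 and THY1 not detected, and the leukocyte markers PTPRC and CD3E were not detected. The summed intensity of the 5 fibroblast markers was 5105 to 5766 in the shRNA-labelled line with doxycycline, against 3586 to 3927 without it, and 5876 to 6908 in the control line with doxycycline, against 3627 to 3997 without it. Of the 2 leukocyte genes detected, LYZ rose and CD14 fell in both lines. Of the 5 fibroblast genes, PDGFRA and PDGFRB rose in both lines and LUM in the control line, and of 12 epithelial markers 4 rose in the shRNA-labelled line, against 3 in the control line, with KRT20 and GPA33, genes of mature enterocytes and colonocytes, in both. The part of these shifts in the synthetase values was not tested. Signal from bulk RNA cannot tell fewer cells of a kind from less RNA per cell.

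In the shRNA-labelled line with doxycycline, 3 of the 35 members passed the threshold of an adjusted p under 0.05, MARS1 and YARS1 lower and HARS1 higher, where 11.5% of all genes passed, 5.01% lower and 6.49% higher. In the control line 11 of the 35 members fell and 0 rose (limma, with 1 member higher at an unadjusted p under 0.05, the mitochondrial seryl enzyme gene SARS2), where 16% of all genes passed, 8.11% lower and 7.88% higher. By compartment, 2 of 17 cytosolic members fell and 1 rose in the shRNA-labelled line, with 0 of 16 mitochondrial members past the threshold (limma, 3 at an unadjusted p under 0.05). In the control line 8 of 17 cytosolic members fell, 1 of 16 mitochondrial members and 2 of 2 shared members. With arrays scaled to the median of the kept probes, 9 members fell and 2 rose there, QARS1 (0.41, adjusted p = 0.0242) and SARS2 (0.33, adjusted p = 0.0227). Of all 12566 genes 867 fell and 1495 rose in the control line with that scaling, against 1019 and 990 as reported. The median log2 difference over cytosolic members was -0.07 in the shRNA-labelled line, against -0.32 in the control line. Over mitochondrial members it was 0.02 in the shRNA-labelled line, against -0.07 in the control line, and over all genes -0.02 against -0.01. The mitochondrial medians changed sign with the scaling, to -0.0787 in the shRNA-labelled line with median scaling over all probes and to 0.0217 in the control line with median scaling over kept probes, and that of the shRNA-labelled line also without the second doxycycline array (-0.0192). The median over all genes moved in the same direction with these scalings, to -0.0882 and to 0.0692 in the same order. Without that array it was -0.0143 in the shRNA-labelled line.

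**Figure D1:**
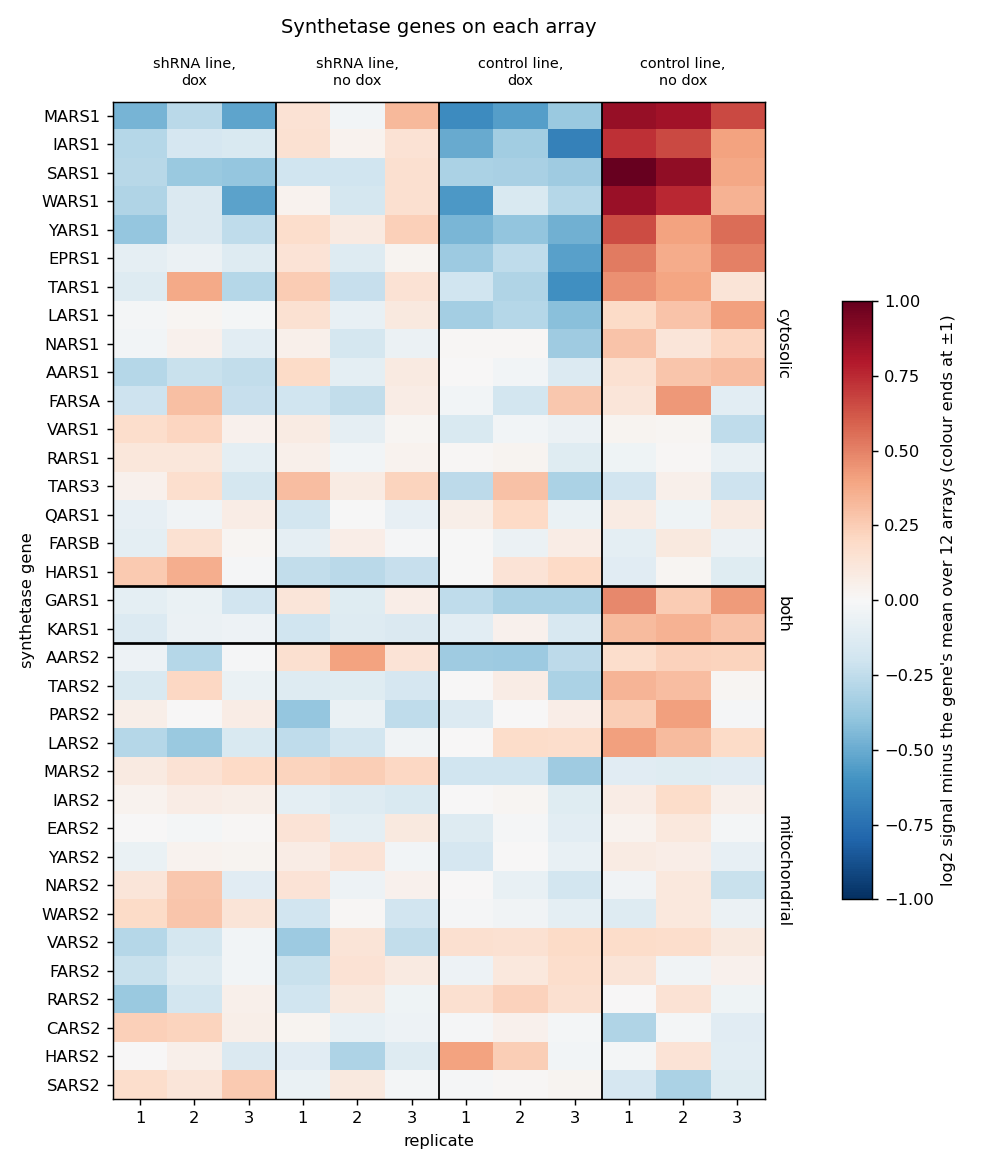
Deviation of each of the 35 synthetase genes (rows, grouped by compartment) from its own mean over 12 arrays (columns), in log2 units, with colour ends at -1 and 1. The 3 control-line arrays without doxycycline stand out as the high block among cytosolic genes, where the medians per array are 0.19, 0.28 and 0.22.

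Set against each gene's mean over all arrays, the median cytosolic member of the shRNA-labelled line stood at -0.09, 0.02 and -0.15 with doxycycline, against 0.09, -0.09 and 0.09 without it. The control line's medians were -0.20, -0.15 and -0.31 with doxycycline, against 0.19, 0.28 and 0.22 without it. The shRNA-labelled line's ranges overlapped, and those of the control line did not. Mitochondrial members of the control line lay between -0.05 and 0.02 with doxycycline, against -0.03 to 0.12 without it. The control line without doxycycline held the highest group mean for 11 of 17 cytosolic members and 2 of 2 shared members, against 4 of 16 mitochondrial members, while it held the highest mean for 25.5% of all genes. In the shRNA-labelled line 7 members were lower and 6 higher on all 3 doxycycline arrays than on all 3 without it, where 15.5% and 15% of all genes were. For the control line 16 members were lower and 3 higher in this way (10 of 17 cytosolic, 4 of 16 mitochondrial and 2 of 2 shared among the lower), where 17% and 16.8% of all genes were.

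Promoters of the members that fell were read because the core of the response element through which ATF4 is known to act, TGATGNAA, can be searched in them. Windows of 300 bases (250 before to 50 after the start of the gene, RefSeq, GRCh38.p14) were given for 30 members, 39 windows in all. A gene was counted as holding a match if any of its windows did. CARS1, GARS1 and TARS1 had 2 windows each, with a match in 1 of them. The letters were found on either strand in 6 of 14 cytosolic members with a window (MARS1, IARS1, TARS1, CARS1, AARS1 and NARS1), 1 of 14 mitochondrial members (YARS2) and 1 of 2 shared members (GARS1). Of 27305 genes with such a window, 4.46% held them. Among members that fell in the control line 4 of 8 with a window held a match, against 3 of 21 that did not pass there. The 4 that fell and hold a match are given 5′ to 3′ on the gene's own strand, in lower case with the match in capitals; each reads as the reverse complement of the motif.
MARS1: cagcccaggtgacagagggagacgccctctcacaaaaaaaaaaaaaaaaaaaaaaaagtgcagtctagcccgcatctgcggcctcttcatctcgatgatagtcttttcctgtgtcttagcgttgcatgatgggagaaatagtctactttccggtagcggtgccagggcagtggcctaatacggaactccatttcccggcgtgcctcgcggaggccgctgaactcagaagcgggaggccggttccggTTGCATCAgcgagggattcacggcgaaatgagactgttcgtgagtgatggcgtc
IARS1: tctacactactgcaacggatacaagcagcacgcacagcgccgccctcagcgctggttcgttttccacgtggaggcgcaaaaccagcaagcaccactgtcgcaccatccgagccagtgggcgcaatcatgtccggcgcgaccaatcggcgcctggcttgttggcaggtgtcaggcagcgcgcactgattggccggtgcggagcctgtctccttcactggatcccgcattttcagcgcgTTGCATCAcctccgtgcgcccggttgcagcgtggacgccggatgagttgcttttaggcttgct
GARS1: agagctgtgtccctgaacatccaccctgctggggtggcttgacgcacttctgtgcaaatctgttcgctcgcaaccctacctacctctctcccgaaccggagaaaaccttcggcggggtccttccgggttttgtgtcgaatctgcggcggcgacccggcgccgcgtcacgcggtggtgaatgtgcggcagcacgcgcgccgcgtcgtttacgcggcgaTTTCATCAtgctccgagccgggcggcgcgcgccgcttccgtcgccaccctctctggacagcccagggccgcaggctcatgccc
TARS1: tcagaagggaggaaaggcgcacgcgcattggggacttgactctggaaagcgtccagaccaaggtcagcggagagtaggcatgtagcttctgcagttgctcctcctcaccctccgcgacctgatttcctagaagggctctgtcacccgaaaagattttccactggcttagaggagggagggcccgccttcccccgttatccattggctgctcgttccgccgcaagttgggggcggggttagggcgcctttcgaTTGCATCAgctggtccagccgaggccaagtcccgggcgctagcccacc
The MARS1 window lies at chr12:57487818-57488117 on the plus strand, IARS1 at chr9:92293648-92293947 on the minus strand, GARS1 at chr7:30594628-30594927 on the plus strand and TARS1 at chr5:33440715-33441014 on the plus strand. Counted from the start that the printed window surrounds, the first base of the match was at -4 in MARS1, -13 in IARS1, -33 in GARS1 and 3 in TARS1. MARS1, IARS1 and TARS1 hold the same 8 letters, and GARS1 differs from them inside the match. A match is a description of letters and not of a bound site. For EPRS1, SARS1, WARS1 and KARS1, which fell and have no match, it says only that these letters are not in their windows, and no window was given for LARS1, YARS1 or AARS2.

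The multi-synthetase complex has 7 members on the list. With doxycycline MARS1 fell in the shRNA-labelled line, and 5 of the 7 fell in the control line (MARS1, IARS1, EPRS1, LARS1 and KARS1). The median log2 difference over the 7 was -0.06 in the shRNA-labelled line, against -0.64 in the control line. MARS1 encodes the methionyl enzyme, which also charges the initiator tRNA. In the shRNA-labelled line it read 11.60, 11.79 and 11.54 with doxycycline, against 12.21, 12.04 and 12.39 without it, with no overlap. The difference was -0.57 ± 0.12 (SE, 3 arrays a group, adjusted p = 0.0115), and the call was lost when the third shRNA-labelled array without doxycycline was left out (adjusted p = 0.0567). MARS1 in the control line read 11.43, 11.51 and 11.69 with doxycycline, against 12.93, 12.91 and 12.72 without it, with the groups more than 1 log2 unit apart. It fell by 1.31 ± 0.12 on the log2 scale (adjusted p = 0.000126), the largest drop among the 35 members in that comparison, and its level decreased by 59.6%.

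IARS1, the isoleucyl enzyme, read 11.98, 12.10 and 12.11 in the shRNA-labelled line with doxycycline, against 12.42, 12.30 and 12.41 without it. These groups did not overlap, but the difference of -0.31 missed the threshold (adjusted p = 0.107). IARS1 in the control line read 11.76, 11.92 and 11.59 with doxycycline, against 12.99, 12.93 and 12.67 without it. All 3 treated arrays lay below all 3 untreated ones, and IARS1 fell by 1.11 ± 0.11 on the log2 scale (adjusted p = 0.000200). EPRS1 encodes a single chain with glutamyl and prolyl activities. Its values in the shRNA-labelled line were 13.47, 13.50 and 13.43 with doxycycline, against 13.69, 13.43 and 13.59 without it, with overlapping groups and a difference of -0.10 (adjusted p = 0.592). EPRS1 in the control line stood at 13.19, 13.30 and 13.02 with doxycycline, against 14.08, 13.93 and 14.06 without it. It fell by 0.85 ± 0.10 (adjusted p = 0.000461) with no overlap between groups.

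LARS1, the leucyl enzyme that is also described as a leucine sensor for the growth kinase mTORC1, read 11.95, 11.99 and 11.95 in the shRNA-labelled line with doxycycline, against 12.12, 11.90 and 12.07 without it, with overlap and a difference of -0.06. LARS1 in the control line read 11.63, 11.68 and 11.55 with doxycycline, against 12.16, 12.25 and 12.38 without it. The treated arrays were lower throughout, and LARS1 fell by 0.64 ± 0.10 (adjusted p = 0.00122). KARS1, the lysyl enzyme of cytosol and mitochondrion, read 12.33, 12.40 and 12.41 in the shRNA-labelled line with doxycycline, against 12.26, 12.33 and 12.31 without it, with overlap and a difference of 0.08. KARS1 in the control line read 12.36, 12.50 and 12.30 with doxycycline, against 12.78, 12.81 and 12.75 without it. It fell by 0.39 ± 0.09 (adjusted p = 0.00997) without overlap, and lost its call when arrays were scaled to a common median in place of quantiles (adjusted p = 0.273 over all probes and 0.0755 over kept probes). The remaining members of the complex, QARS1 (glutaminyl) and RARS1 (arginyl), did not pass in either line as reported. QARS1 differed by 0.08 in the shRNA-labelled line (95% interval -0.14 to 0.29), against 0.02 in the control line (-0.20 to 0.24). RARS1 differed by 0.03 in the shRNA-labelled line (-0.17 to 0.23), against 0.01 in the control line (-0.20 to 0.21).

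**Figure D2:**
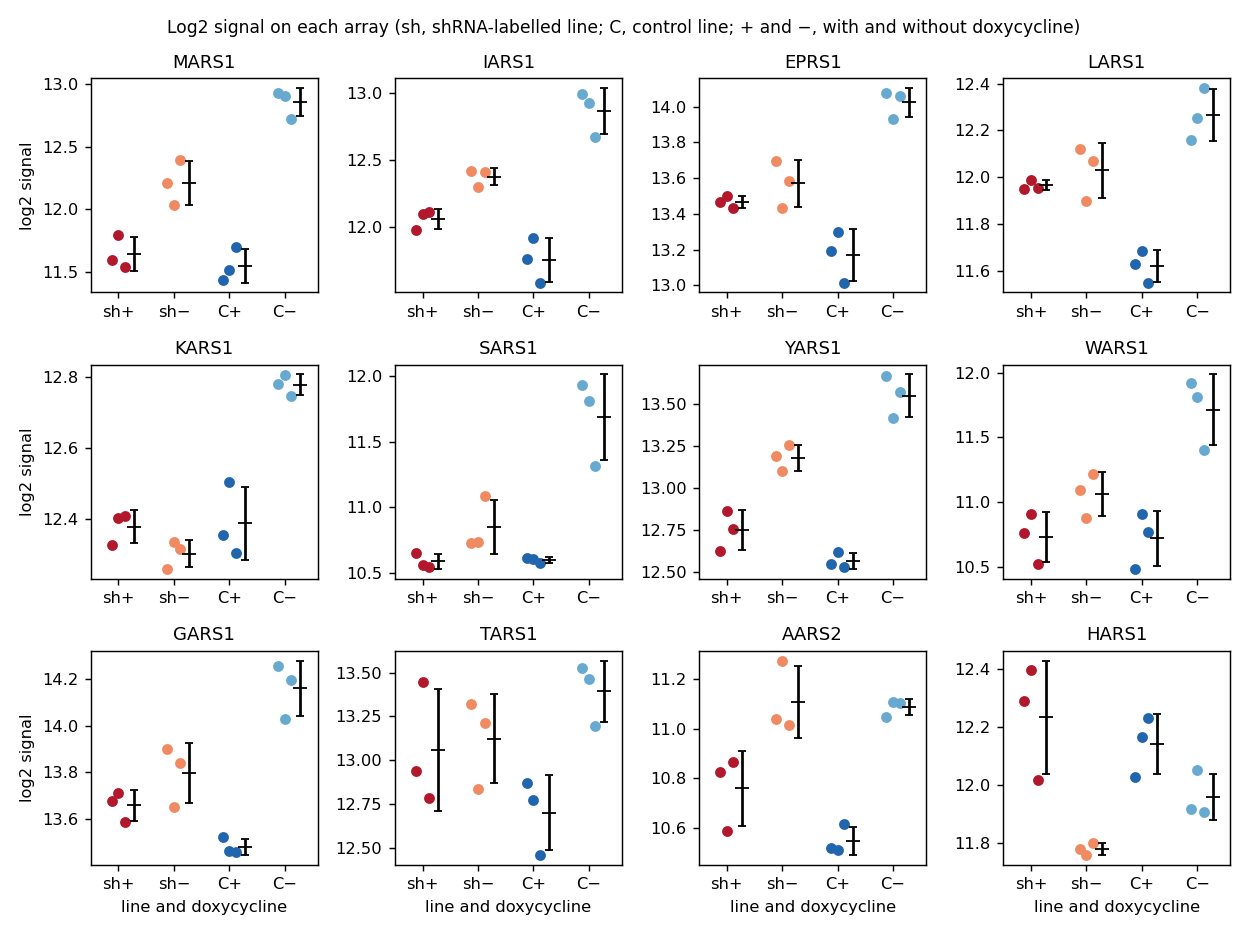
Log2 intensity of 12 synthetase genes on each of 3 arrays a group (points) with the mean and SD (bar), for the shRNA-labelled line with (sh+) and without (sh−) doxycycline and the control line with (C+) and without (C−) doxycycline; each panel has its own vertical scale, which does not start at 0. In the MARS1 panel the control line lies between 11.43 and 11.69 with doxycycline, against 12.72 to 12.93 without it.

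Among the 11 cytosolic members outside the complex, YARS1 fell in both lines, and SARS1, WARS1 and TARS1 fell in the control line. YARS1, the tyrosyl enzyme, read 12.63, 12.87 and 12.76 in the shRNA-labelled line with doxycycline, against 13.19, 13.10 and 13.25 without it. The groups lay apart, with a difference of -0.43 ± 0.10 (adjusted p = 0.0175), but that call was lost without the first doxycycline array of that line (adjusted p = 0.0735), without the third untreated array (0.0776), with median scaling (0.145) or with the line's groups fitted alone (0.0576). YARS1 in the control line read 12.55, 12.62 and 12.53 with doxycycline, against 13.66, 13.41 and 13.57 without it. It fell by 0.98 ± 0.10 (adjusted p = 0.000192), again with the groups apart, and its level decreased by 49.3%.

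SARS1, the seryl enzyme, also charges the tRNA on which selenocysteine is made. It read 10.65, 10.56 and 10.55 in the shRNA-labelled line with doxycycline, against 10.73, 10.73 and 11.09 without it, a difference of -0.26 that missed the threshold (adjusted p = 0.316). SARS1 in the control line read 10.61, 10.61 and 10.57 with doxycycline, against 11.93, 11.81 and 11.31 without it. The treated arrays were close together and the untreated ones spread over more than 0.6, and SARS1 fell by 1.09 ± 0.15 (adjusted p = 0.000949). WARS1, the tryptophanyl enzyme, is also known as an interferon-induced gene. It read 10.76, 10.91 and 10.53 in the shRNA-labelled line with doxycycline, against 11.10, 10.88 and 11.22 without it, a difference of -0.33 (adjusted p = 0.233) with overlap. WARS1 in the control line read 10.48, 10.91 and 10.77 with doxycycline, against 11.92, 11.81 and 11.41 without it, and fell by 0.99 ± 0.16 (adjusted p = 0.00242) with no overlap. A further WARS1 probe, detected on 12 of 12 arrays, gave -0.41 in the shRNA-labelled line, against -1.47 in the control line.

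TARS1, the threonyl enzyme, read 12.94, 13.45 and 12.78 in the shRNA-labelled line with doxycycline, against 13.32, 12.84 and 13.21 without it, with overlap and a difference of -0.07. TARS1 in the control line read 12.87, 12.77 and 12.46 with doxycycline, against 13.53, 13.46 and 13.19 without it, and fell by 0.69 ± 0.19 (adjusted p = 0.0282). Leaving out the second or the third control-line array with doxycycline (adjusted p = 0.0615 and 0.111), or the first or second array without it (0.103 and 0.0812), ended the call, as did both median scalings. GARS1, the glycyl enzyme of both compartments, read 13.68, 13.71 and 13.58 in the shRNA-labelled line with doxycycline, against 13.90, 13.65 and 13.84 without it, with overlap and a difference of -0.14. GARS1 in the control line read 13.52, 13.46 and 13.46 with doxycycline, against 14.26, 14.03 and 14.20 without it. It fell by 0.68 ± 0.10 (adjusted p = 0.00108) with no overlap, and this call was lost with median scaling over all probes (adjusted p = 0.114).

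The cytosolic genes AARS1, NARS1, FARSA, FARSB, VARS1 and TARS3 did not pass in either line. AARS1 (alanyl) had treated arrays below all untreated ones in both, with -0.31 in the shRNA-labelled line (adjusted p = 0.0636), against -0.30 in the control line (adjusted p = 0.0614). NARS1 (asparaginyl) overlapped between treatments in the shRNA-labelled line (0.03) and did not in the control line (-0.32, adjusted p = 0.0867). The phenylalanyl subunits FARSA and FARSB, the valyl enzyme VARS1 and the threonyl-like TARS3 overlapped in both lines. Their log2 differences lay between -0.19 (TARS3) and 0.14 (VARS1) in the shRNA-labelled line, against -0.13 (FARSA) to 0.02 (FARSB) in the control line. Of 8 cytosolic members of class I, one of the unrelated catalytic folds of these enzymes, 5 fell in the control line, against 2 of 8 of class II, where 8.11% of all genes fell. EPRS1, which holds both folds, is outside this count. So are the shared members KARS1 and GARS1, both of class II, which also fell in the control line. Class I here includes MARS1, IARS1, LARS1, QARS1 and RARS1 of the complex. The class II count includes no complex member, because KARS1, which is in the complex, was counted as shared. Fold and complex membership were therefore not separated.

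Of the 35 members HARS1, the histidyl enzyme, alone passed the threshold on the higher side in a doxycycline comparison. It read 12.29, 12.40 and 12.02 in the shRNA-labelled line with doxycycline, against 11.78, 11.76 and 11.80 without it, all treated arrays above all untreated ones. The increase was 0.45 ± 0.11 on the log2 scale, or 37.0% (adjusted p = 0.0210). That call was lost without the first or second doxycycline array (adjusted p = 0.0734 and 0.0879), without the first, the second or the third untreated array of that line (0.0546, 0.0602 and 0.0642), with median scaling (0.288) and with the line's groups fitted alone (0.0694). HARS1 in the control line read 12.03, 12.17 and 12.23 with doxycycline, against 11.92, 12.05 and 11.91 without it, with overlap and a difference of 0.18 (adjusted p = 0.300). HARS1 and its mitochondrial partner HARS2 are closely related genes, and whether their probes cross-hybridise was not tested.

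Among the 16 mitochondrial members the alanyl enzyme gene AARS2 alone passed in a doxycycline comparison. It read 10.83, 10.59 and 10.87 in the shRNA-labelled line with doxycycline, against 11.04, 11.28 and 11.01 without it, without overlap, but the difference of -0.35 missed the threshold (adjusted p = 0.0539). AARS2 in the control line read 10.52, 10.51 and 10.61 with doxycycline, against 11.05, 11.11 and 11.10 without it, a difference of -0.54 ± 0.11 (adjusted p = 0.00575) with no overlap. WARS2, the mitochondrial tryptophanyl enzyme, came nearest to the threshold on the higher side in the shRNA-labelled line, with 0.32 (adjusted p = 0.0572), and PARS2, the prolyl enzyme, gave 0.28 there (adjusted p = 0.179). The other 15 mitochondrial members had log2 differences between -0.13 (FARS2, phenylalanyl) and 0.32 (WARS2) in the shRNA-labelled line, against -0.30 (TARS2, threonyl) to 0.21 (SARS2, seryl) in the control line.

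**Figure D3:**
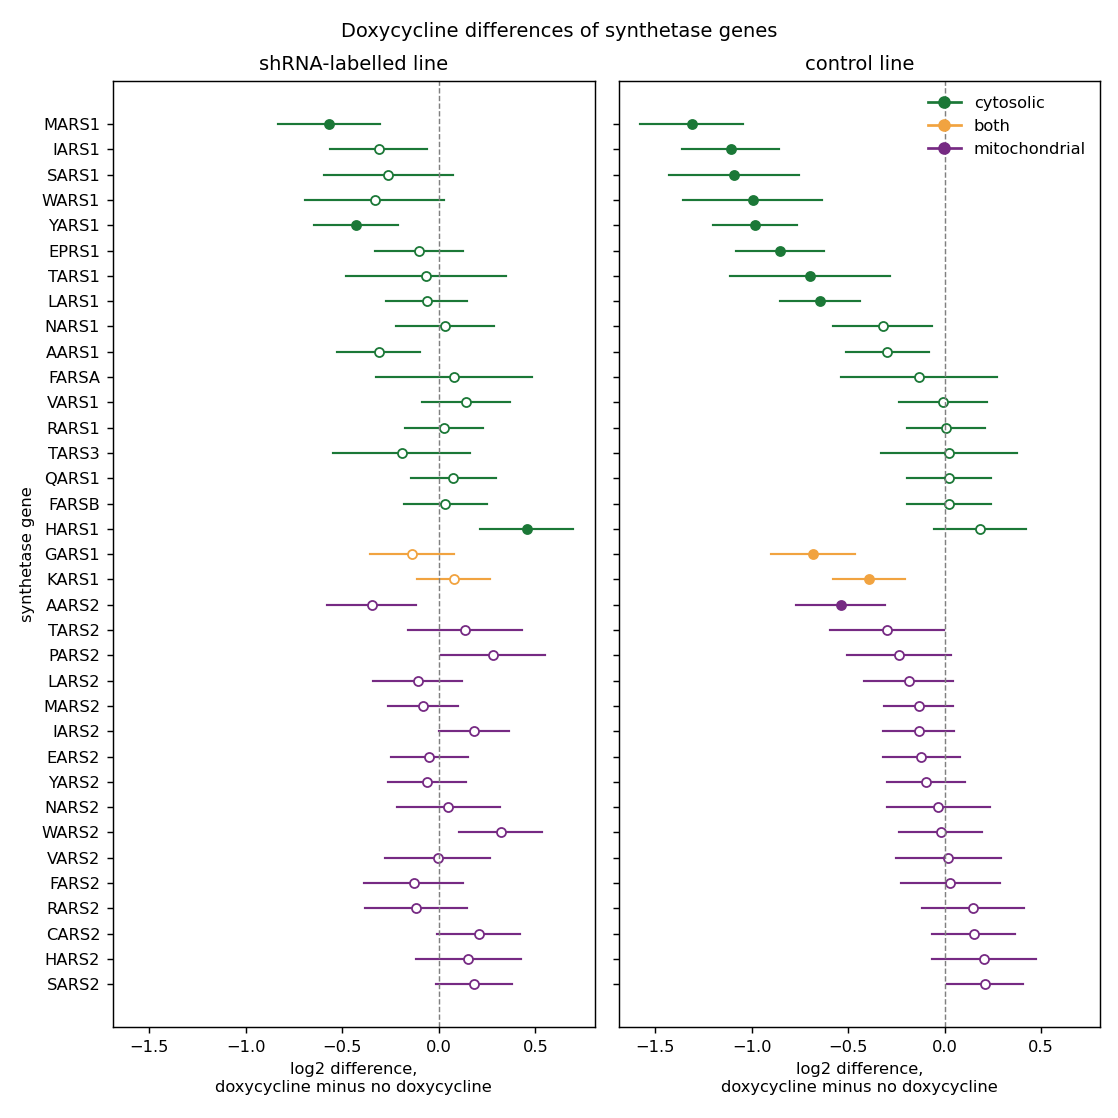
Log2 difference, doxycycline minus no doxycycline, of each of the 35 synthetase genes in either line; points are limma's estimates from 3 arrays a group, lines their 95% intervals, filled points are past an adjusted p of 0.05 and open points are not. Among 17 cytosolic genes 8 are filled on the lower side in the control line, against 1 of 16 mitochondrial genes.

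Pairs of enzymes for the same amino acid allow a comparison within each array. The cytosolic log2 value minus its mitochondrial partner's was taken on every array after quantile normalization, and only the change of this quantity with treatment was used. A constant factor of a whole array cancels in it, but effects of normalization that vary with intensity do not. The pair values given here come from that normalization alone. Over 16 such pairs in the shRNA-labelled line, 5 gave lower values on all 3 arrays with doxycycline than on all 3 without it, 1 gave higher values and 10 overlapped (of single genes tested, 15.5% were lower and 15% higher in this way). For the control line 10 pairs were lower, 1 was higher and 5 overlapped (of single genes, 17% and 16.8%). A difference of 2 genes has another spread than a single gene, and no share over other pairs of genes was computed. The single-gene shares are therefore not a background for the pair counts. EPRS1 enters 2 pairs (with EARS2 and PARS2, both among the 10 lower in the control line) and FARS2 enters 2 (with FARSA and FARSB), so the pairs are not separate genes throughout. Any pair whose arrays do not overlap has p = 0.1 in the two-sided exact permutation test, the smallest that 3 against 3 arrays allow. The change was -0.44 for SARS1 over SARS2 in the shRNA-labelled line, against -1.30 in the control line. For MARS1 over MARS2 it was -0.49 against -1.17, for WARS1 over WARS2 -0.65 against -0.97, for IARS1 over IARS2 -0.49 against -0.97 and for YARS1 over YARS2 -0.37 against -0.88, in the same order of lines. These 5 are the pairs lower without overlap in the shRNA-labelled line, and they were lower without overlap in the control line too. The pair that was higher was HARS1 over HARS2 in the shRNA-labelled line (0.30), and AARS1 over AARS2 in the control line (0.24).

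Whether the doxycycline responses of the lines differed was tested as the response in the shRNA-labelled line minus that in the control line. With limma 2 of 35 members passed, EPRS1 and IARS1, where 0.844% of all genes passed (0.462% higher and 0.382% lower). The difference was 0.75 (95% interval 0.43 to 1.07, adjusted p = 0.0446) for EPRS1 and 0.79 (0.44 to 1.15, adjusted p = 0.0492) for IARS1, so both were less lowered in the shRNA-labelled line. LARS1 and MARS1 gave 0.58 and 0.74 and missed the threshold (adjusted p = 0.0694 and 0.0694). SARS1 gave 0.83, the largest difference among the 35 members, and missed it too (adjusted p = 0.0967). YARS1, GARS1 and KARS1 gave 0.55, 0.54 and 0.47 (adjusted p = 0.0934, 0.0937 and 0.0945). At an unadjusted p under 0.05 there were 14 of 35 members, all on the positive side, and 1999 of 12566 genes, 1038 of them on the positive side. Both calls were lost when most single arrays were left out, while over all alternatives the estimates stayed between 0.56 and 0.82 for EPRS1 and between 0.58 and 0.89 for IARS1. Calls over all genes, 58 higher and 48 lower, also moved with single arrays. They were 4 and 11 without the third control-line doxycycline array and 94 and 112 without the third shRNA-labelled doxycycline array. EPRS1 lost its call without any single array except the third shRNA-labelled doxycycline array and the second control-line doxycycline array (adjusted p = 0.0556 to 0.116), and IARS1 without any single array except the second control-line doxycycline array and the third control-line untreated array (0.0615 to 0.125). With either median scaling neither gene passed (adjusted p = 0.572 and 0.117 for EPRS1, 0.444 and 0.0862 for IARS1), nor without the filter on dim probes (0.0668 for EPRS1 and 0.0759 for IARS1). A further IARS1 probe, detected on 4 of 12 arrays, gave -0.54 in the control line, and with the mean of both probes the IARS1 call was lost (adjusted p = 0.182).

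Lines were also compared within each treatment. These comparisons use the same untreated or treated control-line arrays as the doxycycline comparisons, so their values stand side by side with those above and are not independent of them. Without doxycycline 11 of 35 members passed, 10 lower and 1 higher in the shRNA-labelled line, where 16.3% of all genes passed, 8.87% lower and 7.46% higher. The lower members were SARS1 (-0.84), WARS1 (-0.65), MARS1 (-0.64), IARS1 (-0.49), KARS1 (-0.48), EPRS1 (-0.45), GARS1 (-0.37) and YARS1 (-0.37), with LARS2 (-0.46) and PARS2 (-0.45) among the mitochondrial ones. Their adjusted p-values ran between 0.00367 for KARS1 and 0.0293 for PARS2. The count was 3 without the first control-line untreated array, 7 without the first shRNA-labelled untreated array and with the groups compared fitted alone, and 1 with median scaling. Over all genes 938 higher and 1114 lower became 523 and 613, 585 and 664, 754 and 886, and 453 and 531 in these settings, in the same order. KARS1, SARS1 and MARS1 kept their calls with each single array left out. With median scaling SARS1 alone kept its call, and KARS1 and MARS1 lost theirs (adjusted p = 0.200 and 0.0772). The count of members was 8 to 10 without one of the other untreated arrays of either line (9 and 8 without the second and the third shRNA-labelled array, 8 and 10 without the second and the third control-line array). The IARS1 call was also lost with the mean of both its probes (adjusted p = 0.574).

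With doxycycline 3 of 35 members differed between the lines, where 22.6% of all genes did (10.9% higher and 11.8% lower in the shRNA-labelled line). MARS2, the mitochondrial methionyl enzyme, read 11.26, 11.31 and 11.36 in the shRNA-labelled line with doxycycline, against 10.96, 10.97 and 10.81 in the control line with doxycycline, higher by 0.40 ± 0.08 (adjusted p = 0.00505). Without doxycycline MARS2 was at 11.39, 11.41 and 11.37 in the shRNA-labelled line, against 11.05, 11.04 and 11.05 in the control line, a difference of 0.34 (adjusted p = 0.0165) that lost its call without the first control-line array (0.0536). The lines thus did not overlap for MARS2 under either treatment, and a further MARS2 probe detected on 10 of 12 arrays gave 0.48 with doxycycline and 0.43 without it. LARS2, the mitochondrial leucyl enzyme, was lower in the shRNA-labelled line under both treatments. It read 9.83, 9.74 and 9.96 in the shRNA-labelled line with doxycycline, against 10.12, 10.29 and 10.29 in the control line with doxycycline, a difference of -0.39 (adjusted p = 0.0203). Without doxycycline it read 9.86, 9.93 and 10.08 in the shRNA-labelled line, against 10.52, 10.43 and 10.31 in the control line. LARS1 was higher in the shRNA-labelled line with doxycycline by 0.35 (adjusted p = 0.0223). The LARS1 call was lost without the first or the third control-line doxycycline array (adjusted p = 0.0542 and 0.0808) or the first or second shRNA-labelled one (0.0571 and 0.0627). The LARS2 call with doxycycline was lost without the second or the third control-line array (adjusted p = 0.0670 and 0.0700) or the first or second shRNA-labelled one (0.0603 and 0.0743), and without doxycycline it was lost without the first control-line or the first shRNA-labelled array (0.0562 and 0.0510).

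Genes around tRNA charging were followed in 5 lists. The amino acid response list holds genes for making and importing amino acids and stress genes known as ATF4 targets, and it was chosen with earlier results of these data known. Of its 32 measured genes 8 fell in the shRNA-labelled line with doxycycline, where 5.01% of all genes fell, with a median log2 difference of -0.21 against -0.02 over all genes. Among them were ASNS, the asparagine synthetase (-0.93), EIF4EBP1, a repressor of cap-dependent translation (-0.72), STC2, a secreted stress-response glycoprotein (-0.68), and PSAT1, of serine synthesis (-0.62). This count was 3 without the third untreated shRNA-labelled array, 5 without the first, and 5 and 4 without the first and second doxycycline arrays of that line. Over all genes 630 fell as reported, and 262, 446, 338 and 279 fell in these settings, in the same order. In the control line 17 of the 32 fell and 0 rose (limma, with 1 higher at an unadjusted p under 0.05), where 8.11% of all genes fell and 7.88% rose, with a median log2 difference of -0.46 against -0.01 over all genes. Those with the smallest p-values were ASNS, at 11.26, 11.80 and 11.32 with doxycycline, against 13.92, 13.86 and 13.97 without it (-2.46, adjusted p = 3.23e-06), and the stress-induced mTORC1 inhibitor gene DDIT4 (-2.72). PSAT1 and STC2 gave -1.74 and -1.05. ATF4 RNA itself did not pass in the shRNA-labelled line (0.08, adjusted p = 0.684) or in the control line (0.16, adjusted p = 0.346).

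Further lists held the machinery next to the synthetases. For the shRNA-labelled line 1 gene in each of 4 such lists of 11, 8, 19 and 31 measured genes passed with doxycycline, where 11.5% of all genes passed: LAGE3, of the complex that modifies tRNA next to the anticodon (-0.56), EEF1A2, the elongation factor form of muscle and nerve (0.58), GATC, of the mitochondrial glutaminyl-tRNA amidotransferase (-0.40), and POP7, a subunit of ribonuclease P (-0.75). Of 11 measured cytosolic charging partners, without the complex's scaffold genes, which were not analysed here, 2 fell in the control line (8.11% of all genes did), with a median of -0.13. They were XPOT, the nuclear exporter of tRNA (-0.75, adjusted p = 0.0333), and SEPSECS, which makes selenocysteine on its tRNA (-0.63, adjusted p = 0.00832). Of 8 cytosolic elongation factor genes 1 rose (7.88% of all genes did), EIF5A (0.37, adjusted p = 0.0391), with a median of 0.03. Of 19 measured mitochondrial charging and translation factors 2 fell, the tRNA-modifying enzymes TRMT5 (-0.64) and GTPBP3 (-0.52), with a median of -0.05. Among 31 measured tRNA processing and modification genes, also beside 8.11% of all genes, 2 fell, TSEN15, a subunit of the tRNA splicing endonuclease (-0.69), and POP7 (-0.68), with a median of -0.05. Every one of these counts was changed by leaving out some single arrays. Among charging partners of the control line 1 gene in place of 2 passed without the first or second doxycycline array or the second or the third untreated one, and 1 in place of 2 among tRNA processing genes without the first or second array of either treatment. Among mitochondrial factors 1 in place of 2 passed without the second or the third doxycycline array or the first or second untreated one. EIF5A lost its call without any control-line array except the first doxycycline array, and without the second or the third untreated shRNA-labelled array. In the shRNA-labelled line each of the 4 calls was lost without the second doxycycline array, and without the second or the third untreated array. LAGE3, GATC and POP7 also lost theirs without the first doxycycline array of that line, and GATC without the first untreated one. LAGE3 lost its call without the third doxycycline or the first untreated array of the control line, and GATC without the first or second untreated array there.

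**Figure D4:**
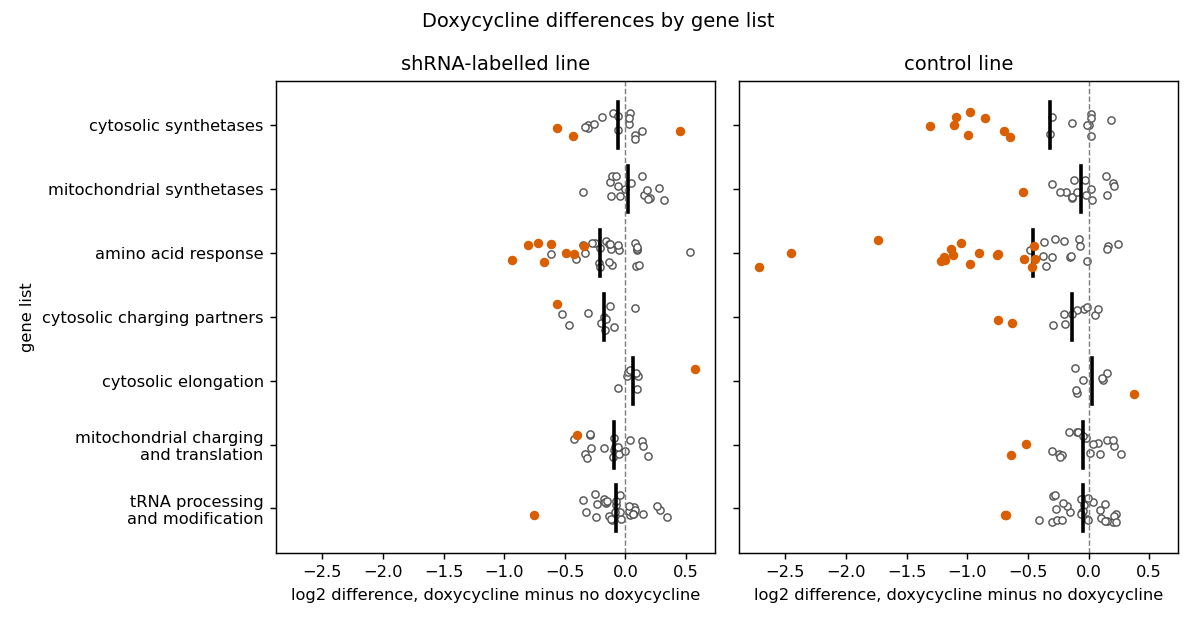
Log2 difference, doxycycline minus no doxycycline, of each gene (points) in the synthetase groups and the 5 related lists, 1 panel for each line; orange points are past an adjusted p of 0.05 and the black bar is the list's median. In the control line the amino acid response list has a median of -0.46 and the cytosolic synthetases -0.32, against -0.07 for the mitochondrial ones.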

How the data were processed

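Biotin-labelled RNA of 12 Caco-2 samples was hybridised to Illumina bead arrays (labels' protocols). The file the authors deposited lists linear bead intensity by probe and array, as its headers say. Next to every intensity the authors deposited a detection p-value. GenomeStudio and lumi are named in the submitters' processing notes, without a version. A second table holds values close to a log2 scale with equal distributions across arrays, made so by the authors, as its values show. How they were transformed is not given in the sources used here. That table was an alternative only.

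Intensities were background-corrected with limma 3.58.1 in R 4.3.3 (normal-exponential model with controls inferred from the detection p-values, offset 16), quantile-normalized and taken to log2. Probes with a detection p-value under 0.05 on at least 3 of 12 arrays were kept, 22417 of 47314. The platform annotation gave 1 symbol to 30109 probes, several to 8 and none to 17197, and 30070 matched a RefSeq gene table. Each gene was read from its brightest kept probe, which gave 12566 genes. Of the 35 members, 30 had 1 kept probe and 5 had more (FARSB, IARS1, MARS2, VARS1 and WARS1).

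All 12 arrays entered one means model (limma, lmFit then eBayes), which pools the spread over the 4 groups. Adjusted p-values are two-sided, after Benjamini and Hochberg over the 12566 genes, with a threshold of 0.05. The fit was tested on simulated data. Errors beside differences are limma's moderated standard errors for a comparison of 3 arrays a group. They use the spread pooled over the 4 groups and not that of the compared groups alone, so a gene has the same error in both lines. The number of arrays limits the precision. All arrays shared 1 chip, and no array pair held identical values. Replicates of a group correlated at 0.987 to 0.993.

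The members and lists were chosen with earlier results of these data known. Members past the threshold are named with values, array values are given for the 12 with the smallest adjusted p over the doxycycline comparisons, which hold KARS1 and GARS1, and each related list is named up to 4 genes. MARS2 and LARS2 array values were added after their values were seen. Alternatives covered background correction, scaling, the probe filter, the choice of probe, the authors' values, array weights, the replicate number as a block, the groups compared alone and each array left out. Deviations of same-numbered arrays correlated between -0.190 and 0.232, not above 0.1 throughout, so the numbers were not taken to pair the samples. Promoter windows and their matches came from a RefSeq table (GRCh38.p14), searched in Python 3.11.15.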

Additional observations from a re-analysis of the deposited data

Results flagged for a closer look

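For EPRS1 and IARS1 the doxycycline response differed between the lines when the difference itself was tested with limma. Taken as shRNA-labelled minus control line, the response differed by 0.75 on the log2 scale for EPRS1 (adjusted p = 0.0446) and 0.79 for IARS1 (adjusted p = 0.0492). EPRS1 itself differed by -0.10 with doxycycline in the shRNA-labelled line, against -0.85 in the control line, and IARS1 by -0.31 in the shRNA-labelled line, against -1.11 in the control line. Neither call held with median scaling (adjusted p = 0.572 for EPRS1 and 0.444 for IARS1), with median scaling over kept probes (0.117 and 0.0862) or without the filter on dim probes (0.0668 and 0.0759). Leaving out most single arrays ended the calls as well, with adjusted p up to 0.116 for EPRS1 and 0.125 for IARS1.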

How the results depend on the processing

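The number of members past the threshold for doxycycline in the shRNA-labelled line, 3, became 6 without background correction, 1 with median scaling, 6 with probes detected on all 12 arrays, 8 with array weights and 1 with the groups compared fitted alone; it was 0 to 4 with single arrays left out, the 0 without the third untreated array of that line (limma, 6 members at an unadjusted p under 0.05). The control line's count of 11, all lower, was 8 to 13 under the alternatives and 10 to 12 with single arrays left out, and held members on the higher side only with median scaling over kept probes (2 higher and 9 lower). Over all genes 990 higher and 1019 lower became 424 and 603 with median scaling, which gave the 8, and 1192 and 1212 without background correction, which gave the 13. The 2 members with a difference of responses became 8 without background correction, 6 with array weights, 1 with the mean of kept probes and 0 with median scaling, with median scaling over kept probes, with no filter and with the replicate number as a block (limma, 3, 11, 14 and 14 members at an unadjusted p under 0.05). Single arrays left out gave 0 to 2. Over all genes 58 higher and 48 lower became 170 and 148 without background correction, 265 and 262 with array weights and 52 and 45 with the mean of kept probes. They were 27 and 30 with median scaling, 51 and 66 with that over kept probes, 20 and 23 of 20042 genes with no filter and 46 and 38 with the block. Lines compared with doxycycline gave 3 members, against 7 without background correction, 0 with median scaling (2 at an unadjusted p under 0.05), 5 with probes detected on all 12 arrays, 6 with array weights and 1 to 4 with single arrays left out. All genes gave 1365 higher and 1481 lower, against 1576 and 1683 without background correction and 705 and 965 with median scaling. They gave 1327 and 1412 of 10394 genes with probes detected on all 12 arrays and 1705 and 1922 with array weights. Lines compared without doxycycline gave 11, against 1 with median scaling, 7 with the groups compared alone and 3 to 11 with single arrays left out. For all genes 938 higher and 1114 lower became 453 and 531 with median scaling and 754 and 886 with the groups alone. Without the first untreated control-line array, which gave the 3, they became 523 and 613.

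The cytosolic and mitochondrial medians of the doxycycline difference in the shRNA-labelled line were -0.15 and -0.0787 with median scaling, and -0.17 to -0.0176 and -0.02 to 0.05 with single arrays left out. In the control line they were -0.15 and 0.0217 with median scaling over kept probes, an alternative chosen after seeing the data, and -0.38 to -0.26 and -0.13 to -0.0437 with single arrays left out. That scaling also moved the genes past the threshold in the control line to 1495 higher and 867 lower, 63.3% higher, against 990 higher and 1019 lower, 49.3% higher, and those with a difference of responses to 51 higher and 66 lower, against 58 and 48. The mitochondrial medians thus changed sign under these scalings, and that of the shRNA-labelled line also without its second doxycycline array (-0.0192). The median over all genes was -0.0882 in the shRNA-labelled line with median scaling. In the control line it was 0.0692 with median scaling over kept probes. No called difference of a member changed its direction. The causes of these shifts were not tested. With the replicate number as a block the control line's count stayed within 1.5 times of 11, and 0 members had a difference of responses (adjusted p = 0.0683 for EPRS1 and 0.0691 for IARS1).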
